A study of Mus musculus with 2 samples.

Results

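The smooth muscle contractile genes are 10 genes chosen by name, out of 27998 in the deposited tables: Acta2, Tagln, Myh11, Mylk, Cnn1, Lmod1, Pln, Smtn, Actg2 and Des. Their transcripts were followed through every cell class of 2 single-cell RNA-sequencing libraries of mouse skeletal muscle, 1 from the quadriceps of the hind limb and 1 from the diaphragm, the breathing muscle. The animals were wild-type C57BL/6J mice, 10 in the study, and the cells of several animals were pooled for each muscle. No treatment or genetic change was described, and age and sex were not given in the sources used here. Muscle was digested with collagenase B and dispase II, mononuclear cells were taken from a Lympholyte-M density gradient, viable cells were sorted on light scatter, and transcripts were counted with a droplet method that reads the 3' end and gives each captured molecule a tag (a UMI, unique molecular identifier). Whole muscle fibres are not mononuclear cells, so the libraries hold the cells that lie between the fibres. With 1 library for each muscle there was no replicate and no test between muscles, and muscle, pool of animals and library cannot be told apart.

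Smooth muscle shortens when calcium activates a kinase that phosphorylates the light chain of smooth muscle myosin, which then pulls on actin filaments. The genes of this machinery are known to be transcribed together under serum response factor and its partner myocardin, and in skeletal muscle their main source is the mural cell, the smooth muscle cell or pericyte wrapped around a blood vessel. Some of them are also known from other cells: Acta2 and Tagln are markers of the myofibroblast, the contractile form of a fibroblast, and Des is made by muscle cells of every kind. FAPs (fibro-adipogenic progenitors) are the resident fibroblast-like cells of muscle from which myofibroblasts can arise, and for this reason the members were examined in FAPs with care.

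By role the members fall into 5 groups. Acta2 (alpha smooth muscle actin; GRCm38 chr19:34241090-34255590, minus strand) and Actg2 (gamma enteric smooth muscle actin; chr6:83512905-83536265, minus) are the actins. Myh11 (the smooth muscle myosin heavy chain; chr16:14194535-14291372, minus) is the motor and Mylk (myosin light chain kinase; chr16:34745210-35002420, plus) switches it on. Tagln (transgelin, or SM22 alpha; chr9:45929619-45936058, minus), Cnn1 (calponin; chr9:22099216-22109630, plus), Smtn (smoothelin; chr11:3517523-3540612, minus) and Lmod1 (leiomodin, a nucleator of actin filaments; chr1:135324807-135368065, plus) bind the actin filament. Pln (phospholamban; chr10:53337667-53345987, plus) restrains the calcium pump of the sarcoplasmic reticulum, and Des (desmin; chr1:75360329-75368579, plus) is an intermediate filament protein. The intervals span each annotated gene from end to end in GENCODE M21, whose identifiers matched those of the tables for all 10.

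Serum response factor is known to bind the CArG box, 2 letters C, 6 letters A or T and 2 letters G, a motif that reads the same on both strands. RefSeq sequence before 1 transcription start of each gene (GRCm38.p6, 250 bases) was at hand for 7 of the 10 members: Acta2, Mylk, Cnn1, Lmod1, Pln, Smtn and Des. The following are shown because Acta2 was the highest member, whereas Smtn and Des were the members whose pattern over cell classes differed most from it; capitals mark CArG-like motifs, in which 1 of the 6 middle letters is C or G. They lie at chr19:34255374-34255623 on the minus strand, chr11:3539293-3539542 on the minus strand and chr1:75360042-75360291 on the plus strand, each printed 5' to 3' on the strand of the gene.
Acta2: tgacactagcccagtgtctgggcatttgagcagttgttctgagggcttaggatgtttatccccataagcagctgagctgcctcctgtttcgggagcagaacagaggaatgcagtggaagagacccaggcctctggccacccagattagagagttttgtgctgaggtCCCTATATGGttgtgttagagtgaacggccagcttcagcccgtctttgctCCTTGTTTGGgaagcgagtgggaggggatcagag
Smtn: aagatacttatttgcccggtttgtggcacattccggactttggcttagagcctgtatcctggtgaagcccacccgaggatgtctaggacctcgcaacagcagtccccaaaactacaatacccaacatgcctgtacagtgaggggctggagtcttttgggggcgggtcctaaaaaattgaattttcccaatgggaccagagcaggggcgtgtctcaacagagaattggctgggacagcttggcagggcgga
Des: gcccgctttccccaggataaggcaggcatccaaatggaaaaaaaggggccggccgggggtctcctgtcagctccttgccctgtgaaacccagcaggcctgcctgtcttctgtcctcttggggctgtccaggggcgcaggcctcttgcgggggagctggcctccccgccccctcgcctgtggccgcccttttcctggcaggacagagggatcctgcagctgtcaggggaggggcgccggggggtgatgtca

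None of the 7 windows held a strict CArG box, which was present in 482 of 32851 windows of the same length (1.47%). Acta2 was the single member with CArG-like motifs. It held 2 of them, CCCTATATGG at bases 84 to 75 and CCTTGTTTGG at bases 34 to 25 before the start, whereas 2380 of all windows (7.24%) held at least 1. The other 6 windows, those of Smtn and Des included, contained neither form in these 250 bases. The windows of Smtn and Mylk lie inside the annotated gene intervals, so sequence before the outer end of those genes was not searched.

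The quadriceps library held 5159 barcodes with 50854519 UMIs (median 9719 per barcode) and the diaphragm library 2499 barcodes with 28545242 UMIs (median 11853). After limits on UMIs alone, 5010 and 2430 barcodes were kept, of which 2839 and 768 had over 5% of their UMIs from mitochondrial genes, and these were retained because the mural cells were among them. Only 5 barcode sequences occurred in both libraries. Clusters were made and named without the 10 members and without a wider list of 48 contractile and myofibroblast genes, so that the members' own levels did not shape the classes.

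Mural cell-like clusters, named from 15 vascular mural markers such as Notch3 and Gucy1a3, held 1243 quadriceps barcodes (24.8% of those kept) and 46 diaphragm barcodes (1.89%). The summed level of the 15 markers was 7916 CPM (counts per 1000000 nuclear-encoded UMIs) in quadriceps and 8508 CPM in diaphragm, against 396 and 285 CPM in FAPs outside mural and Schwann clusters. Of markers that are also used for pericytes, Kcnj8 (3.38 and 2.54 CPM), Abcc9 (3.02 and 0 CPM) and Higd1b (30.3 and 22.9 CPM) were low in these clusters. Cspg4 (336 and 368 CPM), Mcam (574 and 836 CPM) and, in diaphragm, Rgs5 (43.1 and 173 CPM) were not, so the label does not separate smooth muscle cells from pericytes. Their median mitochondrial share was 17.3% in quadriceps and 18.75% in diaphragm, and 1234 of the 1243 and all 46 were over 5%.

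Nearly all member transcripts lay in those cells. Mural cell-like barcodes carried 94.0% of the members' UMIs in quadriceps and 89.4% in diaphragm, and together the members made up 73125 CPM in quadriceps mural cell-like cells (95% Poisson interval 72983 to 73267) and 52356 CPM in those of diaphragm (51643 to 53075). These intervals, like all those below, cover counting error only and say nothing of the spread between animals. A 3' UMI is 1 captured transcript, so levels of different genes were compared per transcript with no division by gene length.

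Of the actins, Acta2 reached 34024 CPM in quadriceps mural cell-like cells (33927 to 34121) and 21681 CPM in diaphragm (21224 to 22146), the highest member in both libraries. Its median was 391 UMIs per barcode in quadriceps and 177 in diaphragm, and 1 barcode in each had none. Actg2 was at the other end of the order, with 30.8 CPM (27.9 to 33.8) and 20.3 CPM (8.77 to 40.0, 8 UMIs). Actg2 was also the most uneven member: 1179 of the 1243 quadriceps barcodes had no UMI of it, while 17 had at least 10 and the highest had 35. Acta2, Actg2 and the striated muscle actins Acta1 and Actc1 have near-identical coding sequences, so reads may be divided between them. In quadriceps mural cell-like cells Acta1 stood at 34.2 CPM and Actc1 at 2.52 CPM, and there were 0.0904 Actg2 UMIs for every 100 of Acta2, so the low actins are uncertain.

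The motor and its switch came next but for Tagln. Myh11 was measured at 7644 CPM (7598 to 7690) in quadriceps and 7297 CPM (7032 to 7568) in diaphragm mural cell-like cells. For Mylk the levels were 3914 CPM (3881 to 3947) and 4526 CPM (4318 to 4741). Myh11, widely used to define differentiated smooth muscle, therefore stood at a similar level in both libraries, whereas Acta2 was lower in that of diaphragm.

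Among the actin-binding members Tagln was the highest, at 22039 CPM (21961 to 22117) in quadriceps and 13892 CPM (13526 to 14265) in diaphragm. Lmod1 followed at 1029 CPM (1012 to 1046) and 988 CPM (892 to 1091). Smtn stood at 969.5 CPM (953 to 986) and 648 CPM (571 to 732), and Cnn1 at 901.8 CPM (886 to 918) and 513 CPM (445 to 589). Lmod1, Smtn and Cnn1 were thus close to each other in quadriceps and spread apart in diaphragm. Of the remaining members, the pump regulator Pln was at 1182 CPM (1164 to 1200) and 1440 CPM (1324 to 1564), and Des at 1391 CPM (1372 to 1411) and 1351 CPM (1239 to 1471). In the quadriceps order of Acta2, Tagln, Myh11, Mylk, Des, Pln, Lmod1, Smtn, Cnn1 and Actg2 each neighbouring pair had counting intervals that did not overlap. In diaphragm the order was the same but for Pln above Des, and the intervals overlapped for Pln and Des and for Smtn and Cnn1.

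**Figure D1:**
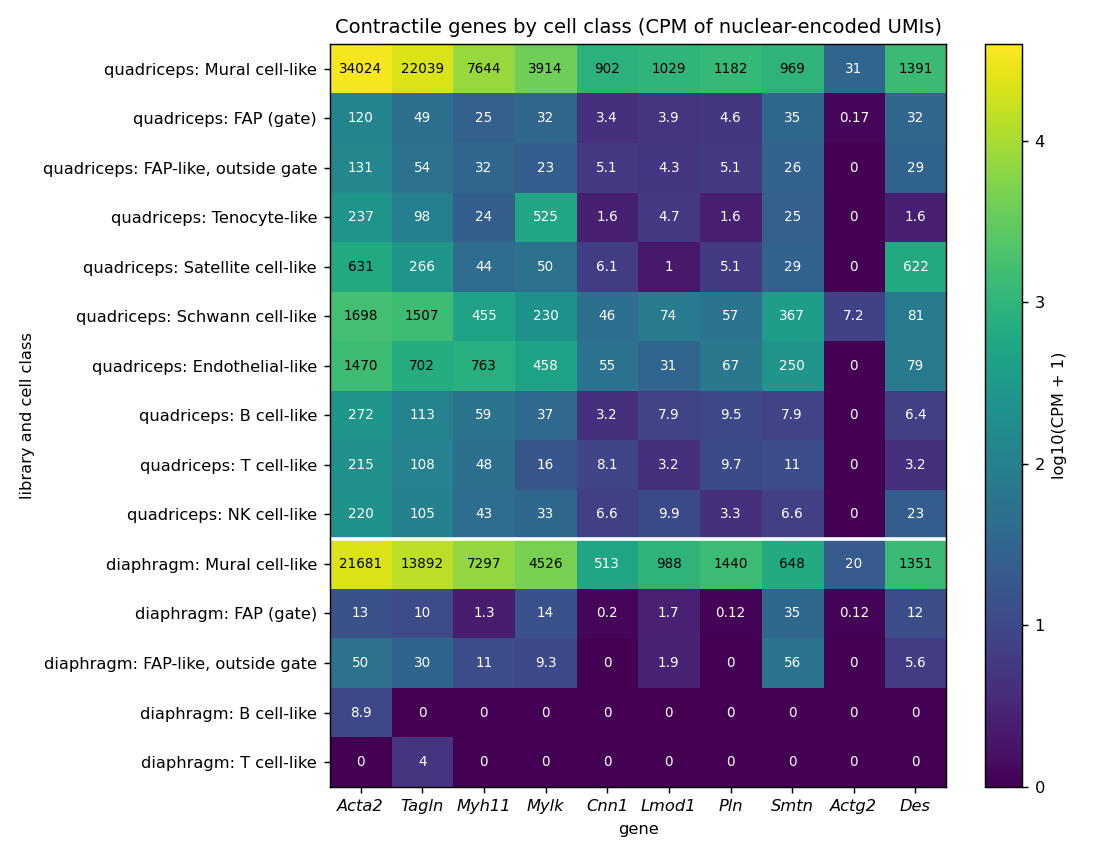
Level of the 10 members (columns) in cell classes of the quadriceps and diaphragm libraries (rows), as CPM of nuclear-encoded UMIs on a log scale. Unnamed classes and the diaphragm tenocyte-like and endothelial cell-like classes are not drawn. The FAP row holds gated FAPs outside the mural and Schwann clusters (2278 and 2008 barcodes). Lighter colours mark higher levels. In each library the mural cell-like row is the brightest for every member, and Actg2 is the darkest column.

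To compare cells of unequal depth, each barcode was thinned to 1000 nuclear-encoded UMIs and the share with at least 1 UMI of a gene was counted. In quadriceps mural cell-like cells Acta2 was then seen in 99.8% of 1196 barcodes, Tagln in 99.3%, Myh11 in 99.0% and Mylk in 96.1%. The other members except Actg2 were seen in 53.7% (Cnn1) to 62.3% (Lmod1), and Actg2 in 2.09%. The 46 diaphragm barcodes gave 97.8% for Acta2, 100% for Myh11 and 41.3% for Cnn1. The 4 abundant members were accordingly near their ceiling in both muscles, and differences in the share of positive cells could be seen only for the others.

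All 10 members were at least 2-fold higher in mural cell-like cells than in the other cells of the same library (CPM with a pseudocount of 1). In quadriceps 8.17% of the 18781 genes tested were 2-fold higher, and in diaphragm 12.7% of 17872. The median member had a log2 fold of 5.14 in quadriceps, where the median of all genes was -0.17, and of 8.62 in diaphragm, where that median was -0.20. Clusters were built on other genes, but genes that are transcribed together stay linked, so these folds describe the classes and were not tested.

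The spread of the folds differed between the libraries. In quadriceps 8 of the members had ratios of CPM in a narrow range, from 27.2 for Mylk and 34.8 for Actg2 (95% interval 23.7 to 53.0) to 40.5 for Tagln, with 37.4 for Acta2 (37.0 to 37.8). Smtn and Des lay below, at 14.5 and 17.8. The other quadriceps cells here include 61 barcodes of mural or Schwann clusters that passed the FAP gate described below. These held 21880 of the 28815 Acta2 UMIs outside the mural cell-like class, and no ratio was computed without them. The diaphragm library had no such barcodes. In diaphragm the ratios were spread from 18.9 for Smtn and 93.6 for Des to 1442 for Acta2, 4863 for Myh11 and 12798 for Pln, the last on 3 UMIs outside the mural cell-like cells (4357 to 62241). Smtn and Des were the members with the lowest ratio in both libraries.

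**Figure D2:**
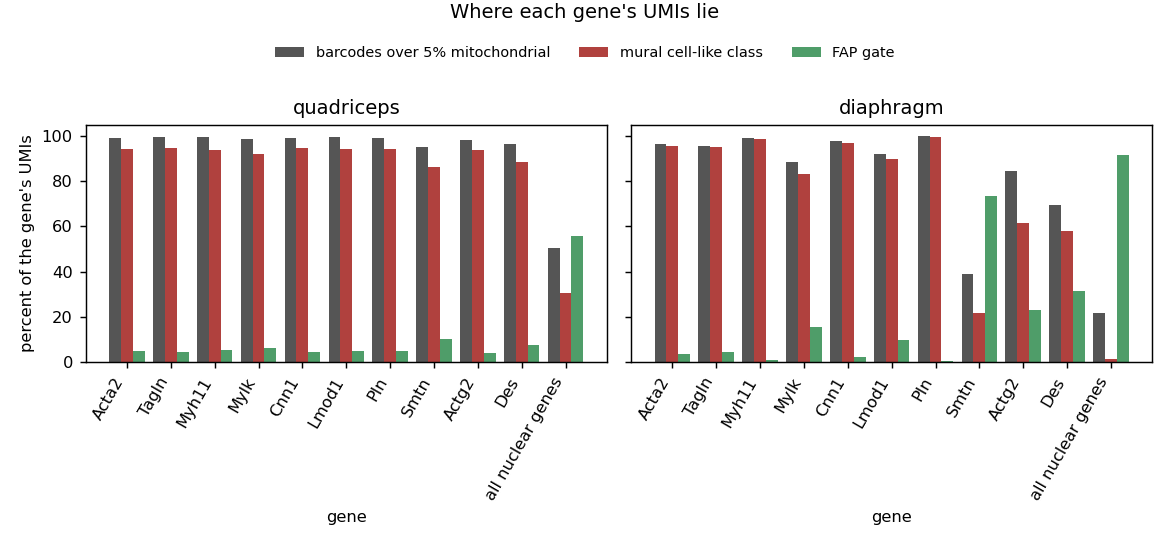
Share of each member's UMIs (percent) held by barcodes over 5% mitochondrial UMIs, by mural cell-like barcodes and by gated FAPs, in quadriceps and diaphragm. These groups of barcodes overlap, and all nuclear-encoded genes are shown beside the members. The FAP colour covers all gated FAPs; mural cell-like barcodes held between 86.4% (Smtn) and 94.7% (Tagln) of every member in quadriceps, while in diaphragm they held 21.8% of Smtn.

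Smtn in the diaphragm was the exception to the mural pattern: 73.5% of its UMIs there came from gated FAPs and 21.8% from mural cell-like cells. Des followed with 31.6% of its diaphragm UMIs in FAPs, Actg2 with 23.1% of only 13 UMIs, and Mylk with 15.7%. FAPs made up 82.6% of the kept diaphragm barcodes and mural cell-like cells 1.89%, so a low level per FAP weighs heavily in these shares.

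A limit on mitochondrial UMIs removed most of the members' signal. Barcodes over 5% held 99.3% of the members' UMIs in quadriceps, from 95.0% for Smtn to 99.5% for Tagln, against 50.7% of all nuclear-encoded UMIs. In diaphragm they held 91.8% of the members' UMIs and 21.7% of all. There the loss ran from 38.8% for Smtn and 69.6% for Des to 100% for Pln. Among barcodes at or below 5% no mural cell-like cluster could be named in either library. A table filtered in that way thus lacks the class that carried most UMIs of each member, Smtn in diaphragm excepted.

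Within the mural cell-like class the members did not vary together along the mitochondrial share. In quadriceps Acta2 was at 20954 CPM in the 9 barcodes under 5%, 35462 CPM in the 563 with 15 to 20%, and 11674 CPM in the 127 with at least 40%. Myh11 was higher in each bin than in the one before it, from 2224 CPM under 5% to 7537 CPM at 15 to 20% and 10668 CPM at 40% and above. Smtn had the same shape as Myh11, from 716 to 922 and 2215 CPM, whereas Tagln fell with Acta2 to 6641 CPM in the top bin.

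The same opposite order was present in diaphragm. Acta2 was at 23830 CPM in the 20 barcodes with 15 to 20% and at 11449 CPM in the 7 with at least 40%. Myh11 was at 6416 CPM and 12582 CPM in those bins. Acta2 and Myh11, far apart in the lower bins, therefore came close to each other in the top bin of both libraries. The top bins were shallow, with a median of 1559 nuclear-encoded UMIs per barcode in quadriceps, against 12746 at 15 to 20%, and of 3263 against 10460 in diaphragm. The bins of 9 and 7 barcodes are thinly filled, and in quadriceps the opposite course of Acta2 and Myh11 was as plain between 15 to 20% and the top bin without the lowest one. Most quadriceps barcodes of the top bin belong to the cluster with platelet transcripts described below, whose median mitochondrial share lay in that bin. The top bin of quadriceps and the profile of that cluster are therefore not separate results. The parts of depth and of that cluster in these differences were not tested.

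**Figure D3:**
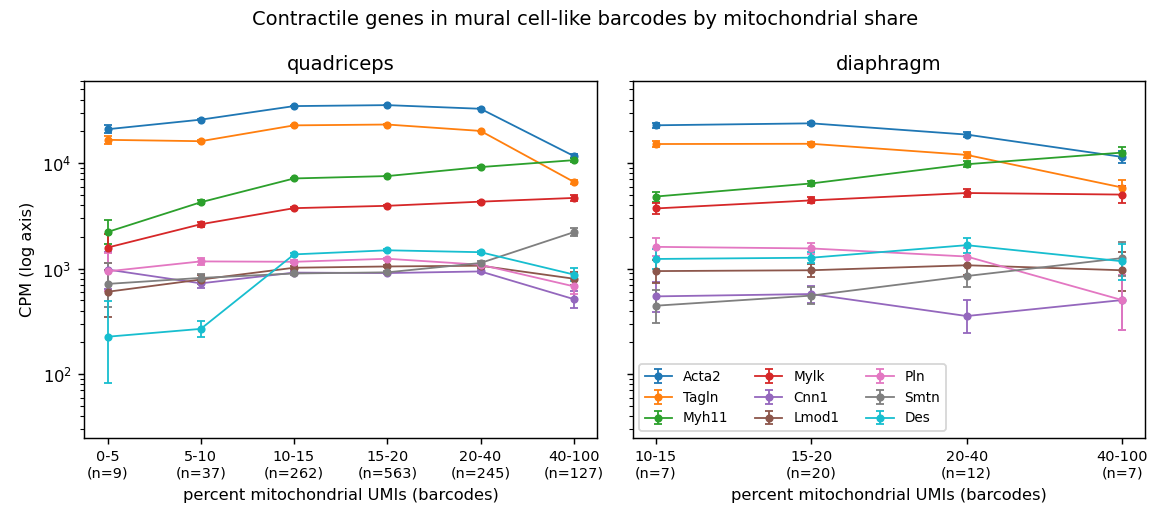
Level of 9 members (vertical axis, CPM of nuclear-encoded UMIs, log scale) in mural cell-like barcodes grouped by the share of their UMIs from mitochondrial genes (horizontal axis, percent), for quadriceps and diaphragm, with 95% Poisson intervals; Actg2 is left out because of its few UMIs. From the 15 to 20% bin to the top bin Acta2 drops from 35462 to 11674 CPM in quadriceps while Myh11 climbs from 7537 to 10668 CPM.

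The 4 quadriceps clusters behind the class, taken here with the 52 gated FAPs they contain, were not alike. The largest, of 556 barcodes, had the members at 77844 CPM in sum and Acta2 at 36334 CPM. A cluster of 286 barcodes, led by the odorant receptor genes Olfr78 and Olfr558, had 72145 CPM. In a cluster of 240 barcodes the sum was 55253 CPM, and there the FAP transcript Dcn stood at 3677 CPM and Scrublet, a doublet caller, marked 60 barcodes. Gated FAPs weigh on these values, since Scrublet marked 50 of the 52. The class itself, which leaves gated FAPs out, had 17 marked barcodes of 1243 and Dcn at 115.5 CPM. The values of this cluster thus do not describe mural cell-like barcodes alone. The last, of 213 barcodes, had 48694 CPM with a median mitochondrial share of 47.7%, platelet transcripts (Ppbp at 306 CPM and Pf4 at 128 CPM) and Rgs5 at 874 CPM. In that cluster Acta2 was at 19282 CPM but Myh11 at 8877 CPM and Smtn at 1453 CPM. These are largely the same barcodes as the top mitochondrial bin of quadriceps above. Without the cluster with most Scrublet calls the class had 74956 CPM in sum (1053 barcodes), and without the one with platelet transcripts 74174 CPM (1031 barcodes).

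Across single mural cell-like barcodes, thinned to equal depth, Acta2 and Tagln were the pair that varied most together, with a Pearson r of 0.752 in quadriceps (n = 1196 barcodes) and 0.805 in diaphragm (n = 46). Over the 36 pairs of the 9 members other than Actg2, r had a median of 0.078 in quadriceps, with 26 pairs above 0, and of 0.184 in diaphragm, with 31 above 0. Myh11 and Mylk, motor and kinase, had an r of 0.254 in quadriceps, and Myh11 and Pln one of -0.107, the lowest there. In diaphragm the lowest was -0.414, between Mylk and Pln. The barcodes of each correlation share 1 library, and in sparse counts most of these values are weak.

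The levels in mural cell-like cells were then set side by side between muscles. None of the 10 members differed by 2-fold or more, where 18.4% of 15565 genes did. The ratio of diaphragm to quadriceps was 0.637 for Acta2, 0.630 for Tagln, 0.668 for Smtn and 0.569 for Cnn1 (95% interval 0.493 to 0.654), all lower in diaphragm. It was 0.955 for Myh11 (0.92 to 0.991), 0.960 for Lmod1 (0.866 to 1.06), 0.971 for Des (0.889 to 1.06), 1.16 for Mylk (1.10 to 1.21) and 1.22 for Pln (1.12 to 1.32). Thus 4 actin and actin-binding members were lower in the diaphragm library and Myh11 slightly so, Mylk and Pln were higher, and the intervals of Lmod1 and Des included 1. For Actg2 the ratio of 0.660 had an interval from 0.283 to 1.31, so no difference was detectable at this depth.

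FAPs were defined by at least 1 UMI of Pdgfra and at least 50 UMIs of Dcn, with no member in the rule. This gate took 2339 quadriceps barcodes (46.7%) and 2008 diaphragm barcodes (82.6%). Summed over all gated barcodes the members stood at 2152 CPM in quadriceps and 86.4 CPM in diaphragm. In quadriceps, however, 61 gated barcodes lay in mural (52) or Schwann (9) clusters, with Acta2 at 17120 CPM, and they held 47272 of the 54592 member UMIs of the gate. Of the 52 in mural clusters, 50 were marked by Scrublet as likely doublets. No such barcodes occurred in diaphragm. Without those 61 the quadriceps sum was 303.9 CPM over 2278 barcodes, and the FAP values that follow are for these 2278 barcodes unless all gated barcodes are named.

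In the 2278 quadriceps FAPs outside mural and Schwann clusters Acta2 was at 119.6 CPM (115 to 124), against 976 CPM over all gated barcodes. Tagln was at 48.8 CPM, against 578, and Myh11 at 24.8 CPM, against 231. Smtn changed far less with this choice, from 62.2 to 35.3 CPM (32.9 to 37.7), and Des from 67.0 to 31.8 CPM (29.6 to 34.1). In FAPs of diaphragm Smtn was the highest member, at 34.6 CPM (32.4 to 37.0), followed by Mylk at 13.6, Acta2 at 12.7, Des at 11.7 and Tagln at 10.4 CPM. Myh11 was at 1.29 CPM there, and Cnn1, Pln and Actg2 were each under 1 CPM. Of the 2008 gated diaphragm barcodes 1345 lay in FAP-like clusters, 223 in a tenocyte-like one, and 249 and 188 in unnamed ones. In quadriceps 2159 of the 2278 lay in FAP-like clusters. The tenocyte-like cluster of diaphragm held 107 of the 337 Mylk UMIs, and the unnamed one of 249 barcodes held 89.

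B cell-like and T cell-like barcodes together (346 in quadriceps, 93 in diaphragm) served as the background, because lymphocytes do not make a contractile apparatus and UMIs of these genes in them were taken as stray RNA in the droplets. In quadriceps that background was high: Acta2 stood at 243.5 CPM in lymphocyte-like cells, Tagln at 110.5 CPM, Myh11 at 53.7 CPM and Mylk at 26.4 CPM. Smtn was at 9.61 CPM and Des at 4.81 CPM. In diaphragm the 93 lymphocyte-like barcodes held 2 UMIs of Acta2, 1 of Tagln and none of the other 8 members, where a count of 0 allows up to 6.29 CPM. Mural cell-like cells were 24.8% of the quadriceps barcodes and 1.89% of those of diaphragm.

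Against this background the quadriceps FAPs gave opposite answers for different members. Over all gated barcodes 9 of 10 members were at least 2-fold higher in FAPs, where 28.7% of 17699 genes were. Outside the mural and Schwann clusters 2 members were, with 28.2% of all genes, and 3 were at least 2-fold lower, with 13.3% of all genes. The 2 higher members were Smtn, with a ratio of 3.67 (95% interval 2.09 to 7.13), and Des, with 6.62 (3.03 to 18.1). The 3 lower were Acta2 at 0.491, Tagln at 0.442 and Myh11 at 0.462. Mylk was at 1.20 (0.85 to 1.76), which includes no difference. The median log2 fold of the members was -0.52, beside 0.22 for all genes, so the count of higher members was below the share of all genes and is no result about the list.

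Lymphocytes carry less RNA than FAPs, so a fixed number of stray UMIs makes up more of their total. The median lymphocyte-like barcode had 2804 (B) or 4635 (T) nuclear-encoded UMIs and the median gated FAP 10359. Counted per barcode instead, Acta2 was at 126.4 UMIs per 100 FAPs and 87.9 per 100 lymphocyte-like barcodes, a ratio of 1.44 (1.28 to 1.63). Tagln had a ratio of 1.29 and Myh11 one of 1.35 by the same count, whereas Mylk had 3.52 (2.48 to 5.15), Smtn 10.8 (6.12 to 20.9) and Des 19.4. For Cnn1, Lmod1 and Pln the intervals included 1. Over all gated barcodes the ratio of Acta2 was 12.0 (10.8 to 13.5). By either count, then, Smtn and Des in FAPs exceeded the level in lymphocyte-like cells, Mylk did so per barcode only, and Acta2, Tagln and Myh11 lay below it per UMI and slightly above it per barcode.

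**Figure D4:**
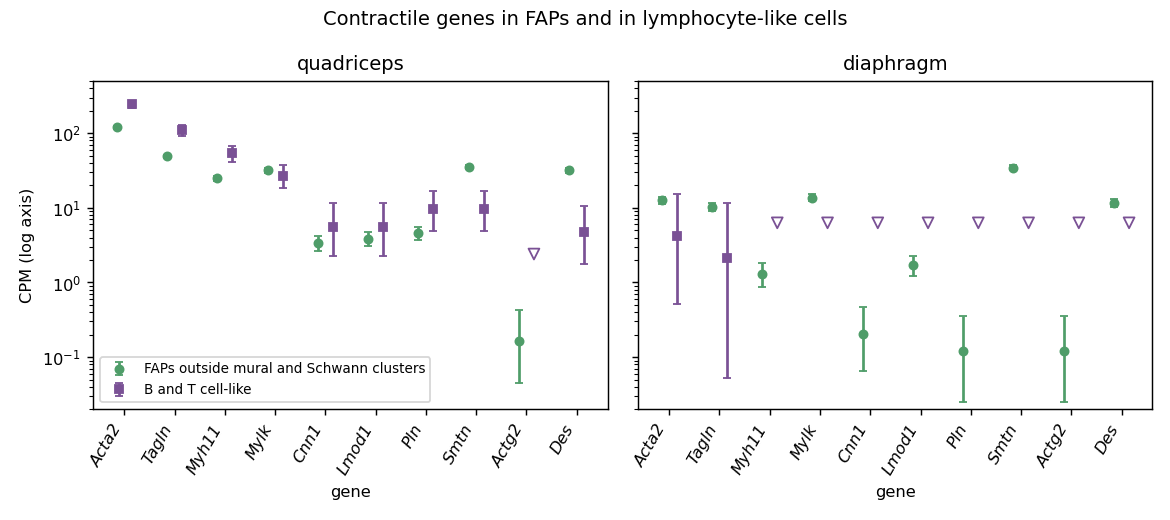
Level of each member (vertical axis, CPM of nuclear-encoded UMIs, log scale) in FAPs outside mural and Schwann clusters and in lymphocyte-like cells of the same library, with 95% Poisson intervals; triangles mark the upper limit that a count of 0 allows. In quadriceps Acta2 is lower in FAPs (119.6 CPM) than in lymphocyte-like cells (243.5 CPM) and Smtn is higher (35.3 against 9.61 CPM).

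The thinned shares gave the same order as the levels per UMI. Acta2 was seen in 11.2% of quadriceps FAPs outside mural and Schwann clusters and in 21.9% of lymphocyte-like barcodes, and Tagln in 5.36% and 9.33%. Smtn was seen in 4.04% (exact 95% interval 3.27 to 4.93) and 0.583% (0.071 to 2.09), and Des in 2.55% and 0%, where a count of 0 allows up to 0.875%. Over all gated barcodes the share for Acta2 was 13.2%. The thinned shares of Acta2 and Tagln in quadriceps FAPs were thus below those in lymphocyte-like barcodes, although their UMIs per barcode were above, and the part of stray RNA in these levels was not tested. In diaphragm FAPs Smtn was seen in 4.13%, Mylk in 1.39%, Acta2 in 1.25% and Des in 1.10%, and none of the 4 in any of 89 lymphocyte-like barcodes, which allows a share of up to 3.37%. The interval of Smtn (3.31 to 5.10) includes that limit, so no difference in shares was detectable at this depth.

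For the diaphragm the fold over lymphocyte-like cells was limited by its 93 barcodes. There 7 members were counted as at least 2-fold higher, beside 28.6% of 17372 genes, but most of these rested on a count of 0. With a floor of 3 counts over the group, Smtn was at least 5.50-fold higher in FAPs, Mylk at least 2.16-fold and Des at least 1.86-fold, and the exact 95% intervals reached down to 4.47, 1.75 and 1.5. Acta2 had a ratio of 3.03 (0.83 to 25.1) and Tagln one of 4.94 (0.88 to 196), both of which include 1. Per barcode the ratios were 7.29 for Acta2 (2.0 to 60.5) and 11.9 for Tagln (2.12 to 472), which do not include 1 but rest on 2 and 1 UMIs in lymphocyte-like cells. The median log2 fold of the members was 1.41 as fitted and -0.50 with members at their bound.

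The members' proportions to each other were given as UMIs per 100 UMIs of Acta2. Tagln had 64.8 in quadriceps mural cell-like cells, 40.8 in FAPs and 45.4 in lymphocyte-like cells. Myh11 had 22.5, 20.7 and 22.0 in the same classes. Smtn had 2.85 in mural cell-like, 29.5 in FAPs and 3.95 in lymphocyte-like cells, and Des 4.09, 26.6 and 1.97. Mylk had 11.5, 26.5 and 10.9. Myh11 was thus in a similar proportion in all 3 classes, Tagln was lower outside mural cell-like cells, and Mylk, Smtn and Des were highest in FAPs. No profile of empty droplets was measured, and the part of stray RNA was not tested. In diaphragm FAPs Smtn reached 273 and Mylk 107 per 100 UMIs of Acta2.

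Between muscles, 8 members were at least 2-fold lower in all gated FAPs of diaphragm than of quadriceps, where 3.63% of 18285 genes were lower. Outside mural and Schwann clusters 7 were lower (Acta2, Tagln, Myh11, Mylk, Cnn1, Pln and Des), where 2.88% of 18170 genes were. The ratio of diaphragm to quadriceps was 0.106 for Acta2, 0.212 for Tagln, 0.052 for Myh11, 0.060 for Cnn1 and 0.026 for Pln. It was 0.428 for Mylk, 0.368 for Des and 0.439 for Lmod1, the last short of 2-fold with the pseudocount. Over all gated barcodes it was 0.0130 for Acta2 and 0.557 for Smtn (0.512 to 0.606). Outside mural and Schwann clusters Smtn had a ratio of 0.983 (0.893 to 1.08), the single narrow interval that included 1. Actg2 had too few UMIs for a comparison, with 0.728 (0.107 to 4.31). Every member was scarce in diaphragm lymphocyte-like cells, Smtn included, which was not lower in diaphragm FAPs. The part of stray RNA in the difference between muscles was not tested.

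Few single FAPs had many UMIs of a member. At least 10 UMIs of Acta2 were present in 11 of 2278 quadriceps FAPs outside mural and Schwann clusters, with 140 the highest, and in 5 of 2008 diaphragm FAPs. The gated barcode with 140 lay in the satellite cell-like cluster and was marked by Scrublet as a likely doublet. Of the 11, 4 lay in the tenocyte-like cluster. For Tagln the numbers were 4 and 8, and for Des 5 and 5. No FAP in either library had 10 UMIs of Smtn, whose highest counts were 8 and 5, so its level came from many barcodes with few UMIs each. Over all gated quadriceps barcodes 66 had at least 10 UMIs of Acta2 and 37 of Smtn. The 3 quadriceps FAPs with at least 10 UMIs of Mylk all lay in the tenocyte-like cluster. In the 8 diaphragm FAPs with at least 10 UMIs of Tagln, the matrix gene Postn stood at 1684 CPM, beside 166 CPM in the other FAPs; these 8 were picked by their Tagln count, and the difference was not tested.

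**Figure D5:**
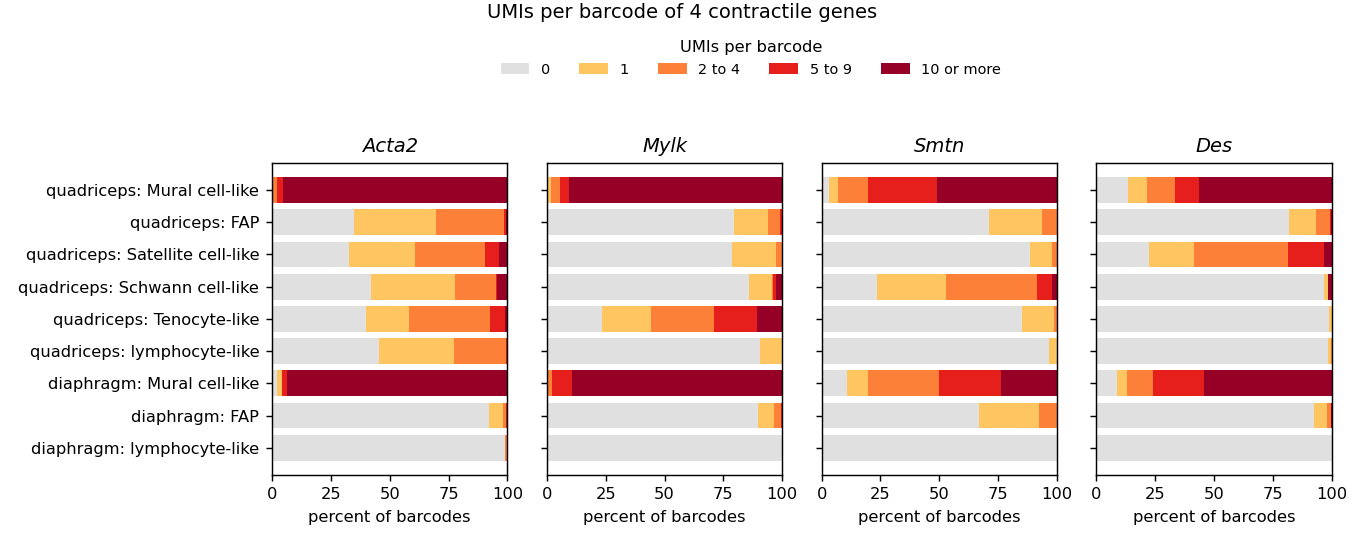
Share of barcodes (percent) by their number of UMIs of Acta2, Mylk, Smtn and Des, in 9 cell classes of the quadriceps and diaphragm libraries, with FAPs taken outside mural and Schwann clusters. Mural cell-like barcodes have a median of 391 (quadriceps) and 177 (diaphragm) UMIs of Acta2, and no FAP outside the mural and Schwann clusters reaches 10 UMIs of Smtn.

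Gated FAPs lay in 7 quadriceps and 10 diaphragm clusters with at least 50 such barcodes, among them a tenocyte-like one in each library and 2 unnamed ones in diaphragm. Acta2 ranged from 99.0 to 123 CPM over the FAP-like clusters of quadriceps and was at 243 CPM in the tenocyte-like one (61 barcodes), and it ranged from 4.11 to 23.4 CPM in diaphragm, so no diaphragm cluster reached the lowest of quadriceps. Smtn ranged from 14.4 to 47.2 CPM and from 26.0 to 50.1 CPM, which overlap. Mylk had a wide range, from 10.6 to 203.6 CPM in quadriceps and from 1.51 to 40.0 CPM in diaphragm, and it was highest in the tenocyte-like cluster of both. Des ranged from 7.93 to 53.3 CPM and from 2.76 to 19.3 CPM.

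A myofibroblast was looked for through 6 genes that are known to accompany it. In FAPs outside mural and Schwann clusters 5 of the 6 were at least 2-fold higher than in lymphocyte-like cells in both libraries, where 28.2% of all genes were in quadriceps and 28.6% in diaphragm. Postn, a matrix protein, was at 109.8 CPM in quadriceps FAPs and 174.4 CPM in those of diaphragm, Fn1 (fibronectin) at 1938 and 953.5 CPM, and Col8a1 at 126 and 540 CPM. Tnc (tenascin C) was at 15.2 and 2.26 CPM and Cthrc1 at 4.57 and 7.18 CPM. Lrrc15 was at 0.125 and 0.282 CPM. Postn, Col8a1 and Cthrc1 thus had higher values in the diaphragm library, where Acta2 and Tagln were lower, and Fn1 and Tnc had lower ones. Lrrc15 was too low in both libraries for a comparison. Resting fibroblasts are known to make some of these genes too.

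Other classes showed a member apart from the mural set. Satellite cell-like barcodes of quadriceps (n = 202), the stem cells of muscle fibres, had Des at 622 CPM (574 to 674) with a median of 2 UMIs per barcode, and Acta2 at 631 CPM (583 to 683). Their Acta2 was above the 243.5 CPM of lymphocyte-like cells, while Myh11 was at 43.9 CPM, below the 53.7 CPM there. A few barcodes carried much of that Acta2: the median was 1 UMI in both classes, 7 satellite cell-like barcodes had at least 10, and the highest had 98 of the 618 UMIs. Tenocyte-like barcodes (n = 93), the tendon fibroblasts, had Mylk at 525 CPM (470 to 585), with at least 10 UMIs in 10 of the 93, and Acta2 at 237.5 CPM.

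In Schwann cell-like barcodes (n = 180), the glia of nerves, Smtn was at 367 CPM and was present in 138 of the 180. The 2 clusters of this class, taken here with the 9 gated FAPs they contain, differed in the other members. Those 9 barcodes held 1744 member UMIs, and Scrublet marked 4 of them. In that of 146 barcodes Smtn was at 380 CPM, Tagln at 491 CPM and Acta2 at 233 CPM, with Myh11 at 45.3 CPM. The cluster of 43 barcodes had Acta2 at 4552 CPM, Smtn at 356 CPM and the FAP transcript Dcn at 12850 CPM. Smtn was accordingly similar in both, whereas Acta2 was not. Endothelial cell-like barcodes (n = 58) had Acta2 at 1470 CPM, but 194 of its 241 UMIs came from 1 barcode. In diaphragm an unnamed cluster of 52 barcodes had Des at 237 CPM (190 to 292) and Acta2 at 131 CPM (96.4 to 173). An unnamed quadriceps class of 106 barcodes had the members at 6571 CPM in sum and Acta2 at 2847 CPM. Its barcodes had a median mitochondrial share of 96.7% and a median of only 87.5 nuclear-encoded UMIs. Unnamed quadriceps classes of 79 and 102 barcodes had Acta2 at 1040 and 455 CPM.

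The wider contractile list gave the setting in which the members were read, with 8.17% of all quadriceps genes 2-fold higher and 20.6% 2-fold lower in mural cell-like cells. Against the other quadriceps cells, 6 of 11 thin filament genes were at least 2-fold higher in mural cell-like cells and 3 lower, with Tpm2 (a tropomyosin) at 14445 against 403 CPM, Tpm1 at 4924 against 212 CPM and Tagln2 lower, at 113 against 445 CPM. Of the 4 myosin genes 2 were higher and 1 lower, with the light chain Myl9 at 10634 against 314 CPM and the non-muscle heavy chain Myh10 at a log2 fold of -2.46. Of the 7 genes that control the light chain kinase and phosphatase 6 were higher, led by the phosphatase inhibitor Ppp1r14a (1802 against 57.8 CPM) and the kinase Prkg1 (log2 fold 4.15), while Rock2 was at 0.22.

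All 6 calcium handling genes were higher, with the calcium store protein Casq2 at a log2 fold of 4.95, the release channel Ryr2 at 4.32 and the pump Atp2b4 at 2.20. Of 9 anchoring and filament genes 8 were higher, with Pdlim3 at 5.07, Synpo2 at 4.79 and Vim at 0.61. Of 5 transcription factors 2 were higher: Myocd (myocardin) at 87.0 against 1.77 CPM and Srf at 2.20 on the log2 scale, with Klf4 lower at -2.58. Of 6 myofibroblast genes 5 were lower, with Fn1 at -4.74, Tnc at -3.42 and Cthrc1 at -2.01. In FAPs outside mural and Schwann clusters, Myocd had 1 UMI in quadriceps and none in diaphragm.

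Outside both lists, the genes whose level followed the members most closely over 16 class-by-library sums with at least 50 barcodes (Pearson r of log2 CPM with the mean of the members, given with no test) were Sorbs2 (0.967), Nrip2 (0.956), Pcp4l1 (0.947), Olfr558 (0.944), Xirp1 (0.944), Slc2a4 (0.941), Fbxl22 (0.937), Grip2 (0.935), Npy1r (0.929) and Myom1 (0.928). The sums share 2 libraries and their stray RNA, and the diaphragm mural cell-like class, with 46 barcodes, was not among them. The quadriceps FAP sum here holds all gated barcodes, those in mural or Schwann clusters included.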

How the data were processed

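Single-cell RNA-seq libraries of quadriceps and diaphragm (1 each) were sequenced by the authors. The deposited matrices hold counts of UMIs per gene and barcode, made with Cell Ranger 3.0.0 on mm10 per the labels. Barcodes with at least 1000 UMIs and below 3 scaled median absolute deviations above the median log10 count were kept, with no mitochondrial limit. Each library was clustered with scanpy 1.11.5 (Python 3.11.15) on 2000 variable genes, 10 principal components, 20 neighbours and Leiden resolution 1, leaving out 58 contractile genes and 13 mitochondrial genes. Clusters were named from fixed markers, at least 3 of which had to be seen in 25% of the cells at 4 times the lowest cluster. Names rebuilt in this way can differ from those of the study. Levels are CPM of nuclear-encoded UMIs with exact Poisson intervals, and ratios have conditional exact intervals. Folds used a pseudocount of 1 CPM, and a gene was called at 2-fold. Shares were computed after thinning to 1000 UMIs, with Clopper-Pearson intervals. Doublets were not removed; Scrublet marked 95 quadriceps and 3 diaphragm barcodes (1.84% and 0.120%), and in diaphragm, where it marked so few of 2499, it may have missed some. Cells are not replicates, so no test was run between muscles. The steps were tested on simulated data. Named were the 10 members, from each role of the wider list the 2 largest and the smallest quadriceps folds, and the 10 genes nearest in pattern. Values of other genes were added after the data were seen. The members, lists and rules were chosen with earlier results of these data known.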

Additional observations from a re-analysis of the deposited data

How the results depend on the processing

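The main sum of the members in quadriceps mural cell-like cells, 73125 CPM, became 73465 without Scrublet doublets, 73485 with both libraries clustered together, 74750 at Leiden resolution 0.5 and 59333 as CPM of all UMIs, and 74956 or 74174 without the cluster with most Scrublet calls or with platelet genes, both chosen after seeing the data. The diaphragm value, 52356 CPM, became 53322 with joint clustering and 41417 as CPM of all UMIs. The quadriceps FAP value depended most on the choice of barcodes: 2152 CPM became 288.3 with at most 5% mitochondrial UMIs, 451.8 without Scrublet doublets, 2055 as CPM of all UMIs, 288.0 for FAP-like clusters in place of the gate, 286.9 for gated barcodes in FAP-like clusters and 303.9 outside mural and Schwann clusters, the last chosen after seeing the data. In diaphragm FAPs 86.4 CPM became 80.2 for FAP-like clusters and 77.4 for gated barcodes in them. The count of members 2-fold higher in quadriceps FAPs than in lymphocyte-like cells, 9 over all gated barcodes, was 2 under 5 of those choices: the mitochondrial limit, no Scrublet doublets, FAP-like clusters, gated barcodes in them, and gated barcodes outside mural and Schwann clusters. Across all comparisons 46 values lay within the limits set for no change, but these include counts that shifted. With mean UMIs per barcode in place of CPM, 10 members were higher in all gated FAPs than in lymphocyte-like cells. The counts by CPM were 9 in quadriceps and 7 in diaphragm. Between diaphragm and quadriceps FAPs the count of 8 became 7 with FAP-like clusters in place of the gate. For diaphragm mural cell-like cells 10 became 9 with genes of at least 20 UMIs. With at most 5% mitochondrial UMIs, no mural cell-like value could be had in either library and no lymphocyte-like value in diaphragm. No paired analysis was possible because each muscle has 1 library. Depth limits the diaphragm most: 46 mural cell-like and 93 lymphocyte-like barcodes.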
